A study of Rattus norvegicus with 6 samples.

Results

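Core circadian clock genes were followed in a rat muscle-cell line after knockdown of the long non-coding RNA Tug1. The members were the entries of the deposited count table named Clock, Per1, Per2, Per3, Cry1, Cry2, Nr1d1, Nr1d2, Dbp and Tef, which are 10 of the 40456 genes in the table. All 10 were found and all 10 passed the filter on low counts. H9c2 is a cardiomyoblast line from rat heart. Both groups were labelled genotype WT, were held for 5 days in medium with 1% serum and 1 µM retinoic acid added daily, and were lipid-transfected for 24 h with 25 nM of a gapmer, an antisense oligonucleotide with locked nucleic acid ends that directs RNase H to its target RNA. The 3 control libraries received a negative control gapmer and the 3 knockdown libraries a gapmer against Tug1. Only 1 line and 1 gapmer sequence per group were used, and the labels do not say whether the replicates were separate cultures or separate experiments, so p-values measure the spread between these libraries, which may be partly technical.

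The mammalian clock is a feedback loop of transcription. CLOCK pairs with BMAL1 (the product of Arntl) and switches on genes with E-box sequences, among them the Per, Cry, Nr1d and Dbp genes. PER and CRY proteins then return to the nucleus and silence CLOCK and BMAL1, while the nuclear receptors REV-ERB alpha and beta (Nr1d1 and Nr1d2) repress Arntl at sites that ROR receptors activate. DBP, TEF and HLF activate genes through D-box sequences, where NFIL3 represses. The loop runs in heart and in cultured cells, where serum or glucocorticoid can set its phase, and in heart it is known for daily rhythms of metabolism and electrical activity. All libraries share 1 time after transfection, and the labels give no clock time of harvest and do not say whether it was the same for both groups. A change in phase, in amplitude and in mean level therefore cannot be told apart for any clock gene value below.

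Sequence around these genes' starts is shown because the loop is known to act through the motifs named here. RefSeq start windows of the assembly GRCr8, running from 250 bases before to 50 bases after an annotated start, were given for 9 of the 10 members (all but Cry1). They were searched on both strands for the E-box CACGTG, its variant CACGTT (here the E′-box), the D-box TTATGTAA or TTACGTAA, the ROR element core TAGGTCA or TGGGTCA, and the cAMP response element TGACGTCA. Of 33469 such windows over all genes, 6.42% held the E-box, 4.83% the E′-box, 1.01% the D-box, 6.60% the ROR element core and 1.83% the cAMP response element. A match was present for 4 members, Per2, Cry2, Nr1d1 and Tef. The share of all windows with any of these motifs was not computed, so this count has no background here. Clock and Nr1d1 had 2 windows each, while the shares above are per window. The lines below give 30 bases around each match on the gene's strand, 5′ to 3′, with the match in capitals. Windows of loop genes outside the members that are described further on (Bmal1, the current name of Arntl, with Rora, Nfil3, Ciart, Bhlhe40 and Bhlhe41) were searched as well, and every match found in them is included.
Per2 E′-box, bases -62 to -57 from the start, chr9:99497038-99497067, minus strand: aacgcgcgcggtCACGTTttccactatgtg
Per2 D-box, bases -192 to -185, chr9:99497167-99497196, minus strand: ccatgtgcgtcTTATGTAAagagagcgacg
Cry2 E′-box read on the other strand, bases -212 to -207, chr3:98860632-98860661, minus strand: acacatggtgggAACGTGagggggcggggc
Nr1d1 E′-box read on the other strand, bases -174 to -169, chr10:84231969-84231998, minus strand: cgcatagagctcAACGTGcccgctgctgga
Nr1d1 E-box at a second annotated start, bases -191 to -186, chr10:84229628-84229657, minus strand: tgtcagctcccaCACGTGtctggggatcct
Tef E-box, bases -198 to -193, chr7:115206617-115206646, plus strand: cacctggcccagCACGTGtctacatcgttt
Bmal1 ROR element core, bases -16 to -10, chr1:176766301-176766330, plus strand: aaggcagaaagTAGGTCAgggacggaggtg
Ciart E-box, bases -93 to -88, chr2:186112322-186112351, minus strand: tgtatctagagtCACGTGttgccggcaaag
Ciart E-box, bases -35 to -30, chr2:186112264-186112293, minus strand: cgcagggggaggCACGTGcagagccgcacg
Ciart E-box, bases -21 to -16, chr2:186112250-186112279, minus strand: cgtgcagagccgCACGTGtctgggaggggg
Bhlhe40 E-box, bases -220 to -215, chr4:143174218-143174247, plus strand: agcgttgtccaaCACGTGagactcatgtga
Bhlhe41 E-box, bases -48 to -43, chr4:180569386-180569415, minus strand: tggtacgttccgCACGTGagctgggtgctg
No match was found in the windows of Clock, Per1, Per3, Nr1d2 and Dbp, which says only that these letters are not in those bases. A match is a description of the letters, not a tested binding site. The starts used for Tef and Ciart lie well inside the annotated gene, not at its 5′ end. On the plus strand Tef begins at chr7:115197180, and on the minus strand Ciart begins at chr2:186113778.

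The libraries held 12978548 to 13544337 counts each. Levels are given as CPM, counts scaled to library size, with TMM factors, and 1 CPM stood for 12.9 to 13.8 counts. The target, Tug1, had 52.0 to 55.4 CPM in controls and 11.2 to 12.5 CPM after knockdown, in the direction of the labels. The cells are labelled cardiomyocyte. Of 11 cardiac markers 3 were tested, Tnnt2 (349 CPM in controls), Gata4 (12.7 CPM) and Actc1 (9.22 CPM), of which Tnnt2 and Actc1 were called higher after knockdown, at 410 and 18.1 CPM. The cardiac markers Myh6, Myh7, Nppb, Nkx2-5 and Ryr2 had at most 3 counts in every library. The cardiac sum was 359 to 390 CPM in controls and 418 to 469 CPM after knockdown. Marker counts stand beside 30.8% of all tested genes called higher and 30.9% called lower. Of 8 tested skeletal muscle markers 7 were higher and 1 lower, with a summed level of 902 to 910 CPM in controls and 1339 to 1417 CPM after knockdown. Of 3 tested fibroblast markers 1 was higher and 1 lower, with a sum of 36532 to 38244 CPM in controls and 31718 to 34397 CPM after knockdown. Of 4 tested smooth muscle markers 3 were higher, with a sum of 686 to 744 CPM in controls and 835 to 960 CPM after knockdown. Of 2 tested leukocyte markers 1, Cd68, was higher, and Ptprc and Adgre1 had at most 3 counts in every library. The leukocyte sum was 10.6 to 12.1 CPM in controls and 15.4 to 17.2 CPM after knockdown. The single tested endothelial marker was not called, with a sum of 3.02 to 4.47 CPM in controls and 2.81 to 3.91 CPM after knockdown. The part of these shifts in the clock gene results was not tested. In bulk RNA, fewer cells of a type and less RNA per cell cannot be told apart.

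The clock genes did not move in 1 direction. After Tug1 knockdown Clock, Per1, Cry1, Nr1d1 and Tef were lower, Dbp and Cry2 were higher, and Per2, Per3 and Nr1d2 did not pass the test. Thus 7 of 10 members (70.0%) were called changed, meaning an adjusted p under 0.05 by the quasi-likelihood test of edgeR (Benjamini-Hochberg, all tested genes), beside 61.7% of the 14216 tested genes. The 5 lower members compare with 30.9% of tested genes called lower, and the 2 higher members with 30.8% called higher. Control and knockdown libraries did not overlap for 7 members, beside 65.6% of tested genes. Clock, Per1 and Tef were called with a log2 change of 1 or more in either direction, beside 9.80% of tested genes. The median log2 fold change was -0.12 over the members and 0.00 over all tested genes, and the median absolute value was 0.45 over the members and 0.34 over all. With this share of calls in the whole transcriptome, the number of clock genes called is close to the background.

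**Figure D1:**
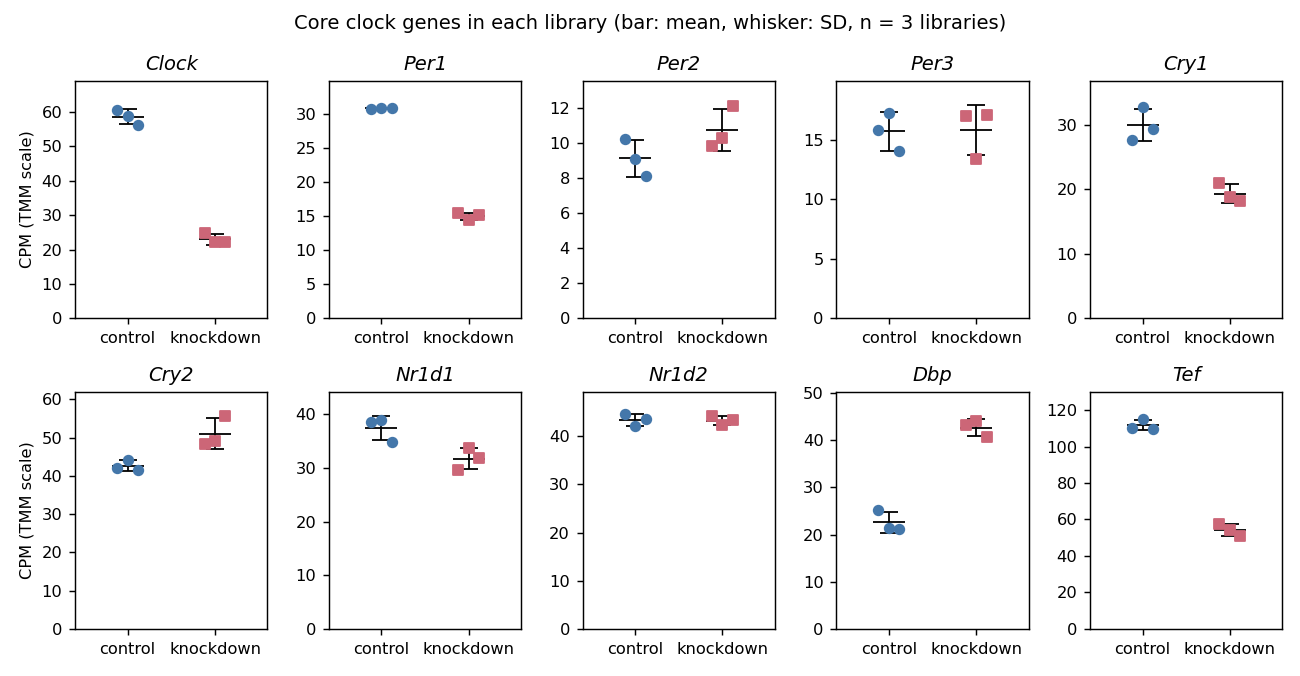
CPM on the TMM scale (vertical axes, from 0) of the 10 core clock genes in the 3 control and 3 knockdown libraries, with 1 point per library, a bar at the mean and a whisker of 1 SD. Clock, Per1, Cry1, Nr1d1 and Tef lie lower and Cry2 and Dbp higher in all 3 knockdown libraries, while the groups overlap for Per2, Per3 and Nr1d2.

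Clock, which encodes the DNA-binding activator that partners BMAL1, fell furthest of the members. Its level was 60.7, 58.9 and 56.4 CPM in the control libraries (replicates 1, 2 and 3, the order used throughout) and 24.9, 22.1 and 22.1 CPM in the knockdown libraries. Every knockdown library was below every control library by a wide margin. The means were 58.7 ± 2.16 CPM for controls and 23.0 ± 1.58 CPM for knockdown (SD, n = 3 each), or 39.3% of control. The log2 fold change was -1.35 (adjusted p 2.70e-13 by edgeR, SE 0.0708), and 95.4% of tested genes changed by that much or less.

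The Per genes encode the repressor proteins of the loop, and they parted from each other. Per1, the member known for rapid induction by serum, cAMP and glucocorticoid, stood at 30.8, 30.9 and 30.8 CPM in the control libraries and at 15.4, 14.4 and 15.2 CPM in the knockdown libraries. Its control values were nearly the same in all 3 libraries (402, 399 and 400 counts), and the knockdown values were all far below them. Per1 was at 48.7% of control, with a log2 fold change of -1.04 (adjusted p 1.95e-10 by edgeR, SE 0.0816). Per2, a repressor whose loss shortens the period in mice, had 10.2, 9.06 and 8.10 CPM in controls and 9.79, 10.3 and 12.1 CPM after knockdown. The groups overlapped through knockdown replicate 1, which was below control replicate 1. Its log2 fold change was 0.23 (95% interval -0.03 to 0.50, edgeR adjusted p 0.123), which did not pass. It was 0.14 without knockdown replicate 3 and 0.32 without control replicate 1, passing in neither edgeR fit (adjusted p 0.411 and 0.0669). Per3, thought to have a lesser part in keeping the rhythm, had 15.8, 17.3 and 14.0 CPM in controls and 17.0, 13.4 and 17.1 CPM after knockdown. These values overlapped throughout, with a log2 fold change of 0.01 (95% interval -0.22 to 0.24, edgeR adjusted p 0.946). The interval leaves room for a change of either sign, but not for one of the size seen in Per1.

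The cryptochrome genes Cry1 and Cry2, which encode the stronger repressors of CLOCK and BMAL1, moved in opposite directions. Cry1 had 27.7, 32.7 and 29.4 CPM in controls and 20.9, 18.7 and 18.2 CPM after knockdown, without overlap. Its mean was 64.5% of control, with a log2 fold change of -0.63 (adjusted p 1.36e-06 by edgeR, SE 0.0872). Cry2 had 42.2, 44.3 and 41.5 CPM in controls and 48.4, 49.2 and 55.7 CPM after knockdown. All knockdown libraries were higher, with knockdown replicate 3 the highest. The Cry2 mean was 120% of control, with a log2 fold change of 0.26 (adjusted p 0.00198 by edgeR, SE 0.0676).

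Of the REV-ERB receptors, which carry the second arm of the loop by repressing Arntl, only the alpha gene passed the test. Nr1d1 had 38.6, 38.9 and 34.9 CPM in controls and 29.7, 33.7 and 31.9 CPM after knockdown. The groups did not overlap, but the nearest libraries, control replicate 3 and knockdown replicate 2, were close. Nr1d1 was at 84.8% of control, with a log2 fold change of -0.24 (adjusted p 0.00779 by edgeR, SE 0.0743). After correction for gene length by an offset, it was at -0.13 on the log2 scale (edgeR adjusted p 0.122). The Nr1d1 span overlaps that of the thyroid hormone receptor gene Thra by 1061 bases in GRCr8. Thra, looked up for this overlap, went from 29.3 to 36.6 CPM (log2 fold change 0.32, adjusted p 0.00106 by edgeR, SE 0.0780). Whether counting used strand is not given in the sources used here, so reads from the shared bases cannot be assigned. Clock, Per2, Cry1 and Cry2 also overlap annotated genes, and those found in the count table had at most 8 counts in any library. For Clock and Per2 an overlapping long non-coding RNA (31678 and 17565 bases shared) was not in the count table. Nr1d2 had 44.6, 42.1 and 43.5 CPM in controls and 44.1, 42.2 and 43.3 CPM after knockdown. The Nr1d2 values interleaved, and its log2 fold change of -0.00 had a narrow 95% interval of -0.14 to 0.13 (edgeR adjusted p 0.953).

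Dbp and Tef, which encode related activators that bind the D-box, showed the widest contrast. Dbp, a classical direct target of CLOCK and BMAL1, had 25.2, 21.4 and 21.2 CPM in controls and 43.3, 44.2 and 40.6 CPM after knockdown. All knockdown libraries were well above all controls. Its mean rose to 189% of control, with a log2 fold change of 0.92 (adjusted p 8.85e-10 by edgeR, SE 0.0789). Tef had 110, 115 and 110 CPM in controls and 57.3, 54.2 and 50.9 CPM after knockdown. Its libraries again formed separate groups, in the other direction. The Tef mean was 48.5% of control, with a log2 fold change of -1.04 (adjusted p 5.44e-13 by edgeR, SE 0.0574). The Tef window printed above, at a start inside the gene, holds an E-box, and the Dbp window holds none of the motifs searched. Whether these letters bear on the opposite changes was not tested.

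**Figure D2:**
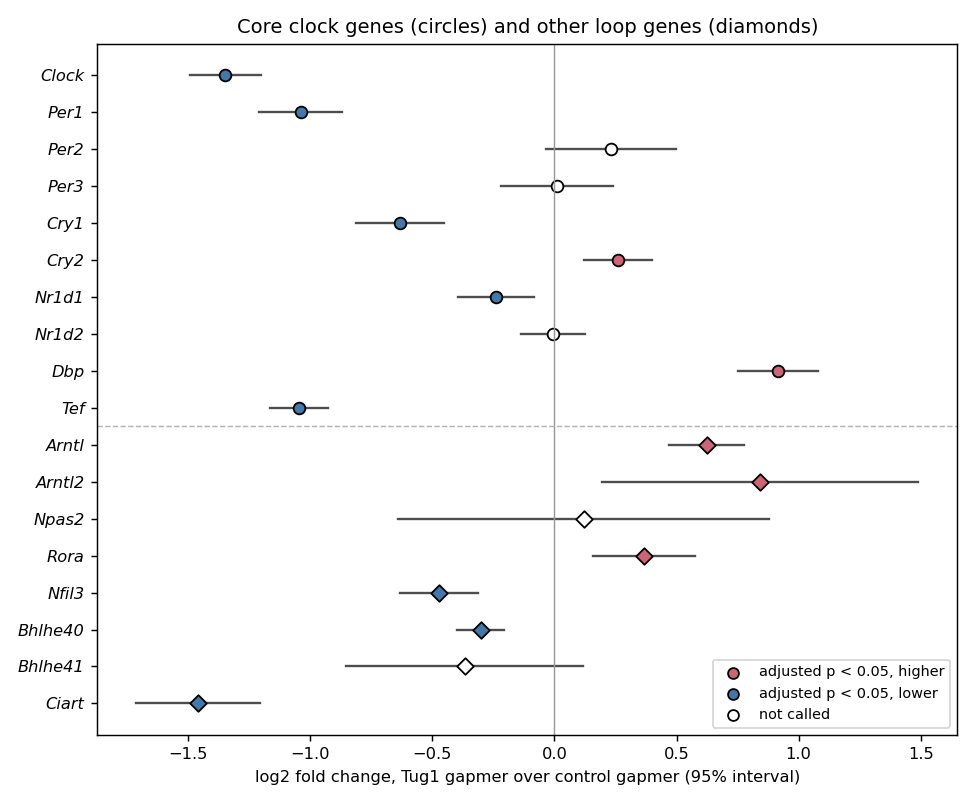
Log2 fold change (Tug1 gapmer over control gapmer, horizontal axis) with its 95% interval from the edgeR fit for the 10 core clock genes (circles) and 8 tested loop genes outside that set (diamonds), coloured by call. Clock (-1.35), Tef (-1.04) and Per1 (-1.04) lie furthest to the left among the members and Dbp (0.92) furthest to the right.

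Unequal change between relatives was compared within each library, as the ratio of their counts, which does not depend on library scaling. The Per1 to Per2 ratio was 3.01, 3.40 and 3.80 in the control libraries and 1.58, 1.40 and 1.26 in the knockdown libraries. The Per1 to Per3 ratio was 1.95, 1.79 and 2.19 in controls and 0.910, 1.08 and 0.890 after knockdown. Both ratios were lower in all 3 knockdown libraries, with log2 differences of -1.27 and -1.04. The Cry1 to Cry2 ratio was 0.657, 0.738 and 0.708 in controls and 0.433, 0.381 and 0.327 after knockdown. It fell by 0.89 on the log2 scale, again without overlap. The Nr1d1 to Nr1d2 ratio was 0.866, 0.925 and 0.802 in controls and 0.674, 0.797 and 0.735 after knockdown. This was the smallest shift, with a log2 difference of -0.23 and with control replicate 3 (0.802) next to knockdown replicate 2 (0.797). The Dbp to Tef ratio was 0.228, 0.187 and 0.193 in controls and 0.756, 0.815 and 0.798 after knockdown, 3.91 times as high. For each of the 5 pairs the exact permutation test over libraries (two-sided) gave p = 0.1, which is the smallest p that 3 against 3 libraries allow, and 0.1 after Benjamini-Hochberg adjustment. The design therefore cannot bring these tests under 0.05. Lack of overlap was common, at 65.6% of single tested genes, and its share over gene pairs was not computed. Every pair holds a member whose own levels did not overlap, and the pairs with Per1 share its counts. The count ratios depend on transcript lengths and are compared only between groups. A trend of change with gene length does not cancel in a ratio where the relatives differ in span. Nr1d1 spans 7.2 kb and Nr1d2 26.3 kb, and with the length offset their log2 fold changes were -0.13 and -0.01. Ratios with the length offset were not computed. Levels were not ranked between genes, because transcript lengths of the authors' annotation were not used here.

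**Figure D3:**
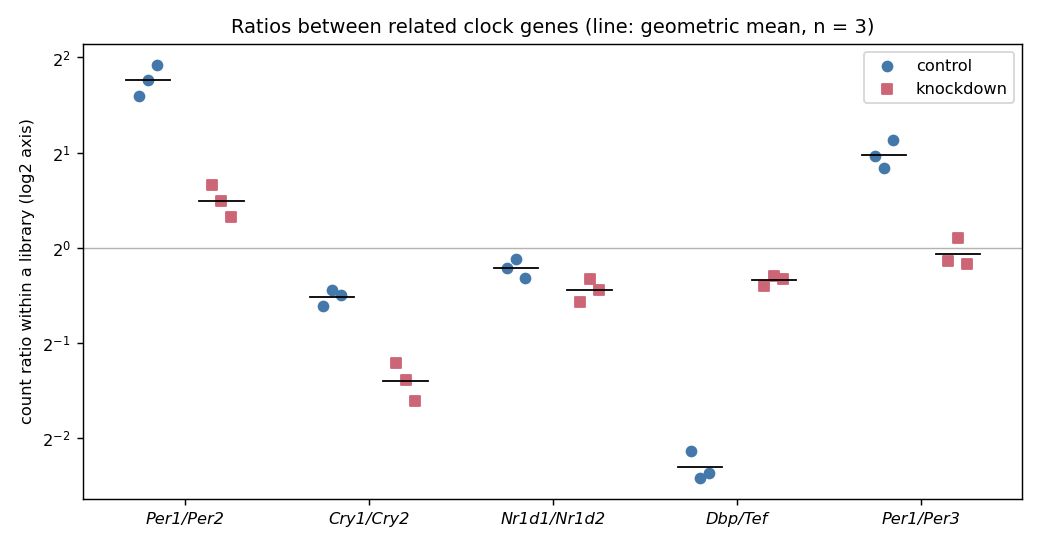
Ratio of counts between related clock genes within a library (vertical axis, log2 scale), with 1 point per library and a line at the geometric mean of 3 libraries. The Dbp to Tef ratio lies at 0.187 to 0.228 in controls and 0.756 to 0.815 after knockdown. None of the 5 pairs shows overlap, but each holds a member without overlap, and the share over gene pairs was not computed.

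Replicates agreed closely for the members. The pooled within-group SD of log2 CPM had a median of 0.0872 over the members, beside 0.0902 over the 6695 tested genes at levels between the lowest and the highest member. Per1 had the smallest spread (0.0361) and Per3 the largest (0.176).

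**Figure D4:**
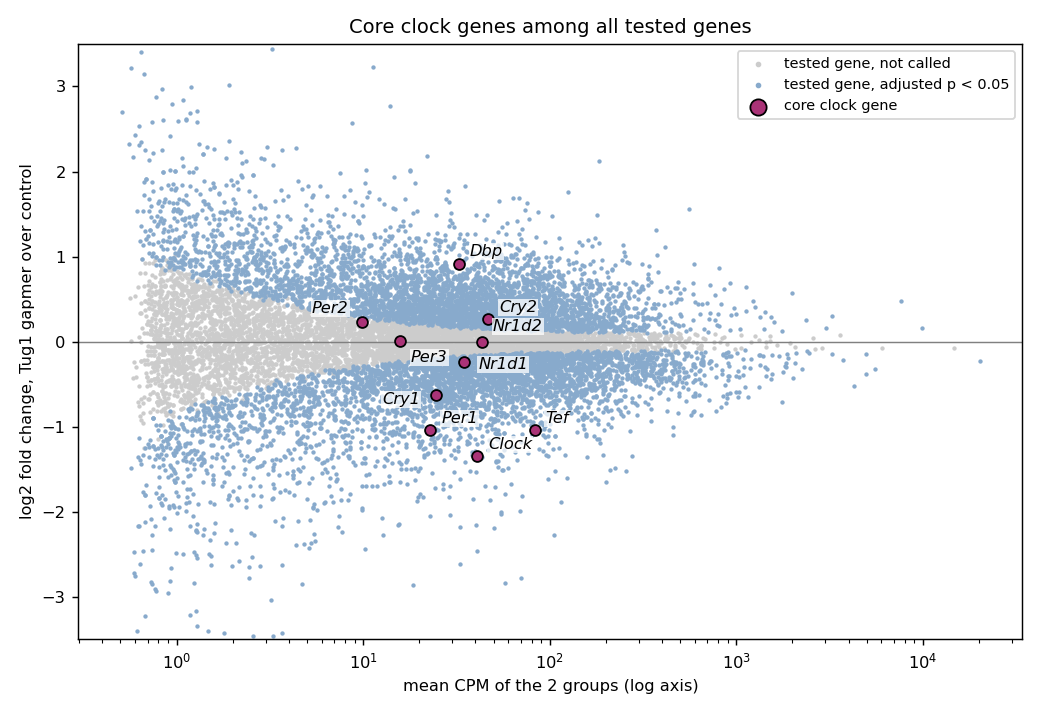
Log2 fold change (vertical axis, shown from -3.5 to 3.5, which leaves out 16 genes) against the mean CPM of both groups (horizontal log axis) for all tested genes, with those past an adjusted p of 0.05 in blue and the core clock genes marked. The members lie within the cloud, from Clock (-1.35) to Dbp (0.92), and Per3 (0.01) and Nr1d2 (-0.00) lie at its centre line.

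Other genes of the clock were taken from lists by role. The table held 55 such genes, of which 52 were tested, and 32 (61.5%) passed the test, 18 higher and 14 lower, a share at the background of 61.7%, against which the counts by role below also stand. Their median log2 fold change was -0.03 and the median absolute value 0.22.

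In the positive arm, Arntl, which encodes the BMAL1 partner of CLOCK, rose while Clock fell. It had 35.7, 29.7 and 35.1 CPM in controls and 50.3, 49.7 and 55.0 CPM after knockdown, without overlap. The log2 fold change was 0.62 (adjusted p 1.57e-07 by edgeR, SE 0.0743). With the length offset Arntl was at 0.43 and still passed (edgeR adjusted p 1.14e-05). Its relative Arntl2 was low, going from 1.05 ± 0.381 to 1.90 ± 0.269 CPM (SD, n = 3 each), and was called higher (log2 fold change 0.84, adjusted p 0.0228 by edgeR, SE 0.312). That call was lost with DESeq2's Wald test (adjusted p 0.0755) and, in edgeR, without control replicate 3 (0.145), knockdown replicate 1 (0.0611) or knockdown replicate 2 (0.0682). Npas2, which can stand in for CLOCK, had mean levels of 0.771 CPM (controls) and 0.838 CPM (knockdown), too few counts for a firm comparison (log2 fold change 0.12, 95% interval -0.64 to 0.88, edgeR adjusted p 0.794).

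Among the receptors that activate Arntl, Rora had 15.2, 12.8 and 16.0 CPM in controls and 17.6, 19.1 and 20.1 CPM after knockdown. It passed as higher (log2 fold change 0.37, adjusted p 0.00316 by edgeR, SE 0.101), but Rora is a very long gene, and with the length offset it was at -0.09 (edgeR adjusted p 0.416). Rorb had 0 counts in all libraries, which allows a level of up to 0.217 to 0.232 CPM at these depths, counting error only.

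The third D-box activator, Hlf, had 1 count in 1 library and 0 in the others, so DBP and TEF transcripts were the detected members of that family. Nfil3, the D-box repressor, went from 31.9 ± 0.698 to 23.0 ± 1.45 CPM (SD, n = 3 each), a log2 fold change of -0.47 (adjusted p 1.44e-05 by edgeR, SE 0.0775). It was thus lower together with Tef, against the rise of Dbp.

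The E-box repressor genes Ciart, Bhlhe40 and Bhlhe41 all have an E-box in the windows printed above, beside 6.42% of all windows. Their log2 fold changes differed in size, and any link to the motif was not tested. Ciart, which encodes a repressor of CLOCK and BMAL1, fell furthest of the loop genes outside the members. It had 18.8, 17.0 and 15.4 CPM in controls and 6.60, 6.44 and 5.59 CPM after knockdown. These groups were far apart, with a log2 fold change of -1.46 (adjusted p 5.80e-10 by edgeR, SE 0.122). Bhlhe40, which competes for E-boxes, went from 311 ± 3.90 to 252 ± 13.3 CPM (SD, n = 3 each; log2 fold change -0.30, adjusted p 6.41e-06 by edgeR, SE 0.0467). With the length offset its log2 fold change was -0.17 and still passed (edgeR adjusted p 0.00284). Bhlhe41 was at 3.99 ± 1.29 and 3.09 ± 0.692 CPM (SD, n = 3 each) and did not pass (log2 fold change -0.37, edgeR adjusted p 0.178). It was -0.09 without control replicate 2, -0.21 without knockdown replicate 1 and -0.55 without control replicate 1, and was called in none of these edgeR fits (adjusted p 0.789, 0.483 and 0.0581).

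The kinases that mark PER and CRY proteins for decay or nuclear entry were mixed, with 2 higher, 2 lower and 4 not called among 8. Gsk3b rose from 107 ± 4.82 to 198 ± 5.42 CPM (SD, n = 3 each), a log2 fold change of 0.89 (edgeR adjusted p 9.60e-13). With the length offset it was at 0.62 and still passed (edgeR adjusted p 1.15e-10). The casein kinase genes Csnk1d (0.39) and Csnk1e (-0.39), whose products both phosphorylate PER proteins, moved apart. In the ubiquitin group 2 genes were higher, 3 lower and 3 not called among 8. The ligase genes Siah2 and Huwe1, whose products are known to act on REV-ERB proteins, were lower, at log2 fold changes of -0.97 and -0.82. Both were named for the size of their change and do not stand for the other genes of the group. The deubiquitinase gene Usp2 was called higher (0.23, edgeR adjusted p 0.0188), but not without control replicate 3 (0.105), knockdown replicate 1 (0.0524) or knockdown replicate 3 (0.0778).

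The corepressor pair through which REV-ERB receptors act parted as well. Ncor1 rose from 76.0 ± 3.42 to 130 ± 2.03 CPM and Hdac3 fell from 72.8 ± 2.42 to 50.8 ± 3.36 CPM (SD, n = 3 each), at log2 fold changes of 0.78 and -0.52 (edgeR adjusted p 2.02e-11 and 1.37e-07). With the length offset these were 0.52 and -0.49, both still called. Of the 10 genes in that group 4 were higher, 1 lower and 5 not called, and Tipin, a partner of Timeless, was among the higher (0.44, edgeR adjusted p 0.00481).

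Of the genes listed for inputs to the clock, which include targets of the glucocorticoid signal, 3 of 8 were called, 2 higher and 1 lower. Sgk1, a kinase gene induced by glucocorticoid and serum, fell from 68.4 ± 2.80 to 29.3 ± 1.28 CPM (SD, n = 3 each; log2 fold change -1.22, edgeR adjusted p 3.22e-13). Tsc22d3, another glucocorticoid target, rose, with a log2 fold change of 0.32 (edgeR adjusted p 9.69e-06) that became 0.20 with the length offset. The receptor gene Nr3c1 was called higher (0.14, edgeR adjusted p 0.0192), but it was at -0.09 with the length offset and lost its call without a filter (0.0525) and without control replicate 1 (0.0519), control replicate 2 (0.0914) or knockdown replicate 2 (0.0649).

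Output genes, whose transcripts are known to follow the clock in various tissues, were called for 9 of 10, with 5 higher and 4 lower, beside 61.7% of all tested genes called. Lpin1, which encodes a phosphatase of lipid synthesis, rose furthest, from 15.5 ± 0.972 to 54.9 ± 4.56 CPM (SD, n = 3 each; log2 fold change 1.83, edgeR adjusted p 2.00e-14). Pparg (0.85) and Pdk4 (0.78), a lipid-sensing receptor gene and a brake on pyruvate oxidation, were also higher. Pparg was low, going from 2.03 ± 0.527 to 3.67 ± 0.738 CPM (SD, n = 3 each), with an edgeR adjusted p of 0.00377. With the length offset Pparg was at 0.62 (edgeR adjusted p 0.0272). Wee1, a mitotic kinase gene known as an E-box target, was lower (-0.69) and was chosen after its values were seen.

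For the members that moved furthest each way, the genes with the most similar profile were found by the root mean square difference of centred log2 CPM over the 6 libraries, among 11750 named genes. Nearest to Dbp were Dennd1a (0.0308, log2 fold change 0.95), Col27a1 (0.0471, 0.95) and Urb1 (0.0474, 0.86). Nearest to Clock were Mgat2 (0.0361, log2 fold change -1.36), Zfp36l2 (0.0388, -1.33) and Heatr3 (0.0528, -1.30). The measure includes the group difference itself, so genes with a like fold change and little spread come out as near.

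**Figure D5:**
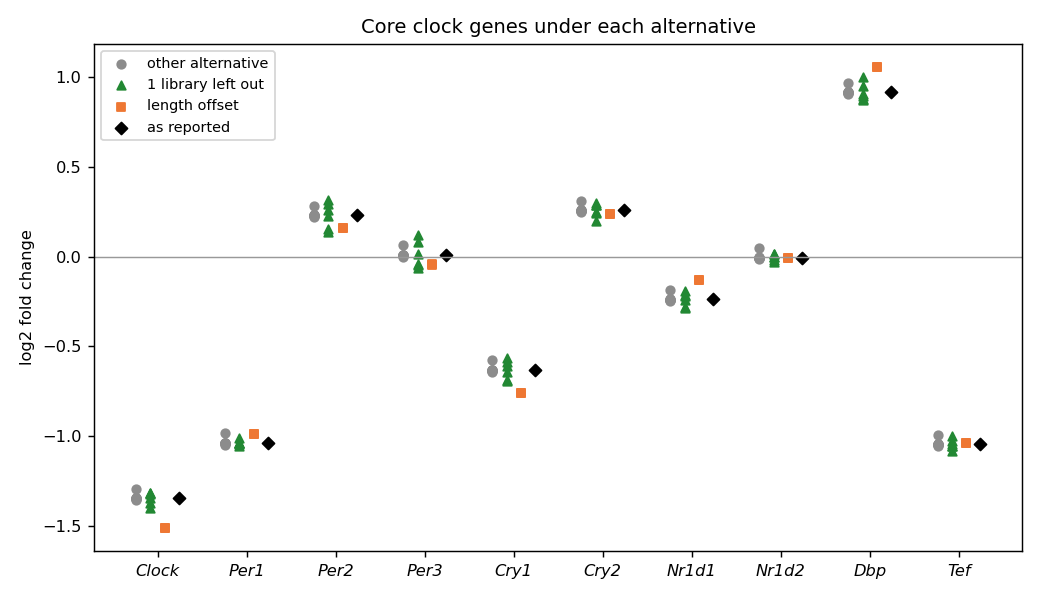
Log2 fold change (vertical axis) of the 10 core clock genes in the fit reported here and under 16 alternatives, among them 6 fits that each leave out a library and 2 with a length offset. Clock, Per1, Cry1 and Tef stay below 0 and Dbp and Cry2 above 0 in all of them, and Nr1d1 comes nearest to 0 with the length offset (-0.13).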

How the data were processed

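Polyadenylated RNA from 6 libraries, 3 per group, was sequenced from stranded TruSeq libraries, per the labels' protocols. Values deposited by the authors are raw counts, whole numbers for each gene and library, as the table itself shows. FastQC 0.11.7, fastp 0.14.1 and STAR 2.5 are named, per the submitters' processing notes; the counting tool, genome build, annotation, strand setting and handling of shared reads are not given in the sources used here. The table held 0 entries without a name and 0 columns of other samples.

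Counts were fitted in R 4.3.3 with edgeR 4.0.16 (minimum count 10, minimum total count 15, TMM, quasi-likelihood test, two-sided, prior count 0.125) for 14216 genes, without a block, with Benjamini-Hochberg adjustment over all of them and a threshold of 0.05. Fold changes are knockdown over control. Same-group libraries differed beyond sampling noise (chi-square per degree of freedom 2.16 to 3.56). A level of 3 counts was taken as the limit of detection. Alternatives were DESeq2 1.42.0 (size factors, Wald test), library totals, limma-voom (limma 3.58.1), no filter, a mean of 1 CPM, a threshold of 0.01, a block for the replicate number, leaving out 1 library at a time, and an offset removing a lowess trend (span 0.3) on genomic span, which was known for 92.0% of tested genes and all 10 members. Scripts were tested on simulated data. Ratios used 0.5 added counts, or 2.

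All members and Tug1 are named; loop lists are named whole, except for a gene not reported here; other lists by their 3 largest called changes at 1 CPM or more; profile neighbours by the 3 smallest differences. Members and lists were chosen with earlier results of these data known. Symbols Arntl and Arntl2 were matched to Bmal1 and Bmal2 in the RefSeq gene table of GRCr8, which with its start windows supplied spans, overlaps and sequences.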

Additional observations from a re-analysis of the deposited data

How the results depend on the processing

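All alternatives were planned. Of the 10 members, 7 kept direction and call in each of 16 alternatives: 7 were called in 14 of them and 6 in both fits with the length offset, where Nr1d1 (-0.13) lost its call. All tested genes called ranged from 7353 (threshold 0.01) to 8987 (no filter), and 8128 to 8410 with a library left out; other clock genes called ranged from 25 to 34. Per3 and Nr1d2, which passed in none of the fits, changed sign. Per3 was at -0.00082 without a filter, -0.0436 with the length offset and -0.0449 with the block added, and ranged from -0.062 to 0.118 with a library left out. Nr1d2 was at 0.048 with library totals and ranged from -0.0282 to 0.014 with a library left out. Among other genes, the length offset alone and with the block took Npas2 to -0.172 and -0.172, Rora to -0.0906 and -0.0898, and Nr3c1 to -0.0876 and -0.0878; Npas2 ranged from -0.0214 to 0.273 with a library left out. The length offset made changes smaller for Arntl, Gsk3b, Ncor1 and Pparg. It made them larger for Clock (-1.51), Cry1 (-0.76), Dbp (1.06), Huwe1 (-1.06) and Sgk1 (-1.44). Per1 was then at -0.99 and no longer reached a log2 change of 1 in size, while Dbp did. The cause was not tested.

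Deviations from the group mean were little correlated between libraries of the same replicate number (0.0039, 0.0312 and 0.0429). With 3 libraries per group this cannot tell whether a replicate number marked a shared culture or day. A replicate block on that number gave 8848 called genes and 7 called members. Depth limits genes near 1 CPM, about 13 counts per library.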
